A study of Mus musculus with 20 samples.

Results

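Some megabase windows of the mouse genome held many GPS2 ChIP-seq peaks in 3T3-L1 cells and few in brown adipose tissue. Chromosomes 1 to 19 of the mouse build mm8 were divided into 2472 windows of 1 Mb, counted from the first base. A window was called dense when it held at least 80 peak centres, summed over the untreated and the FCCP-treated 3T3-L1 lists, and fewer than 40 summed over the male and female tissue lists. The 10 windows from 140 to 150 Mb of chromosome 1 were left out. This gave 231 dense windows, 9.38% of the 2462 considered, and 2231 other windows, of which 60 had no peak in any list. Since the dense windows were chosen by their peak counts in these same lists, their counts and every value taken from the lists are given as a description, with no test.

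GPS2 belongs to the corepressor complexes built on N-CoR and SMRT, which hold histone deacetylase activity and restrain transcription by nuclear receptors and other factors. It is also found at mitochondria, from which it can move to the nucleus when mitochondria are stressed. FCCP is a chemical uncoupler: it carries protons across the inner mitochondrial membrane and collapses the membrane potential. 3T3-L1 is a mouse preadipocyte line that can be turned into fat cells in culture, and brown adipose tissue (BAT) is a thermogenic fat depot rich in mitochondria.

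The series describes 20 ChIP-seq and input samples, and the peak lists of 4 GPS2 samples were used. One list came from 3T3-L1 cells without FCCP and one from 3T3-L1 cells with FCCP. The labels give neither a dose nor a duration for FCCP, nor the stage of differentiation. Each of these lists was called on 1 pool of 2 libraries, named A and B, without an input or other control. The remaining lists came from BAT of 1 male and 1 female sample labelled GPS2 wildtype, on the mixed 129sv/C57BL6J background. Each was called against the GPS2 library of knockout BAT of the same sex. In those knockouts a floxed Gps2 gene was removed by Adipoq-Cre, which the adiponectin promoter drives in mature fat cells, so other cells of the tissue keep the gene. The growth protocol names male mice throughout, although one of the wild-type samples is labelled female. No age was given, and the labels do not say whether tissue was pooled.

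On chromosomes 1 to 19 there were 42486 untreated and 57169 FCCP peaks in 3T3-L1, and 39649 male and 18722 female peaks in BAT. The libraries behind them held 74504840, 66979291, 30069322 and 39310667 tags, a tag being one mapped read position. With 1 list per condition no difference below has a replicate check. Intervals are Wilson 95% intervals, cover counting error only and treat neighbouring peaks as independent.

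The dense windows held 26.2% of all untreated autosomal peaks and 23.6% of all FCCP peaks. The untreated list gave a median of 44 peaks in a dense window, with a range of 30 to 116, against a median of 12 in the other windows. The FCCP list gave a median of 54, with a range of 38 to 140, against 18. Per window this was 3.54 times the untreated density and 3.04 times the FCCP density found elsewhere, with windows without peaks counted there. Each of the lists held at least 40 peaks in 162 of the 231 windows, a count that follows in part from a choice made on their sum.

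Tissue peaks were sparse in the same windows. Male BAT gave a median of 5 peaks per dense window, with a range of 0 to 25, against 15 in the other windows. Female BAT gave a median of 4, with a range of 0 to 16, against 7. The dense windows thus held 4.04% of male and 5.42% of female autosomal peaks. By the limits no dense window could hold more tissue than cell peaks. Of the other windows, 849 did.

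The limit of 40 tissue peaks removed no window. All 231 windows with at least 80 cell peaks outside the chromosome 1 stretch were under it. Conversely, 481 windows held 40 or more tissue peaks, and they had a median of 15 cell peaks and at most 77. The fullest dense windows in tissue held 36 BAT peaks each and lay at 106 to 107 Mb of chromosome 3, 99 to 100 Mb of chromosome 10 and 85 to 86 Mb of chromosome 16; these were picked after their values were seen.

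The limit of 80 cell peaks fell on a continuous slope. There were 38 windows with 80 to 84 cell peaks and 53 windows with 75 to 79. Windows with exactly 80 included 81 to 82 Mb of chromosome 3 and 8 to 9 Mb of chromosome 5. Windows with 79 included 5 to 6 Mb of chromosome 5 and 8 to 9 Mb of chromosome 6. Of the dense windows, 120 held 80 to 99 cell peaks, 95 held from 100 up to under 150 and 16 held 150 or more.

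**Figure D1:**
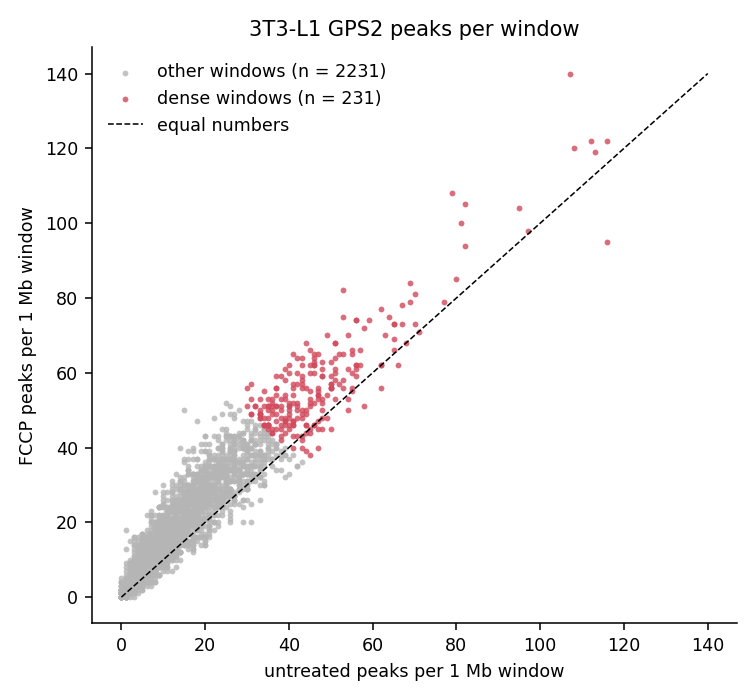
Each point is a 1 Mb window of chromosomes 1 to 19, with its number of untreated 3T3-L1 peaks on the horizontal axis and of FCCP peaks on the vertical axis; red points are the 231 dense windows, grey points the 2231 others, and the dashed line marks equal numbers. The dense windows continue the upper end of a single cloud, and 202 of them lie above the line.

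The dense windows were unevenly spread over the chromosomes. Chromosome 1 held 49 of them, which was 26.1% of its windows. Chromosome 6 held 36 (24.0%), chromosome 10 held 31 (23.8%), chromosome 15 held 21 (20.2%), chromosome 17 held 20 (20.8%) and chromosome 19 held 14 (22.6%). Chromosomes 5, 9 and 8 followed with 18 (11.8%), 11 (8.87%) and 10 (7.52%). The shares of chromosomes 9 and 8 lay below the 9.38% of all windows considered. Together these 9 chromosomes carried 210 of the 231 dense windows, or 90.9%, on 46.3% of the windows considered.

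The other 10 autosomes had 4 dense windows or fewer each. Chromosome 18 had none, and its fullest window held 57 cell peaks. Pooled over chromosomes, the dense windows lay towards the start of the sequence, which in the mouse is the centromeric end. Not every chromosome followed this. On chromosome 4 both dense windows lay at 145 to 147 Mb, and chromosome 2 had a run of 3 at 175 to 178 Mb. The median position of all dense windows was at 25% of the chromosome's length, against 52.0% for the other windows. With each chromosome divided into 3 equal parts, the first part held 131 of them (56.7%), against 31.0% of the other windows, the middle held 61 and the last held 39.

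**Figure D2:**
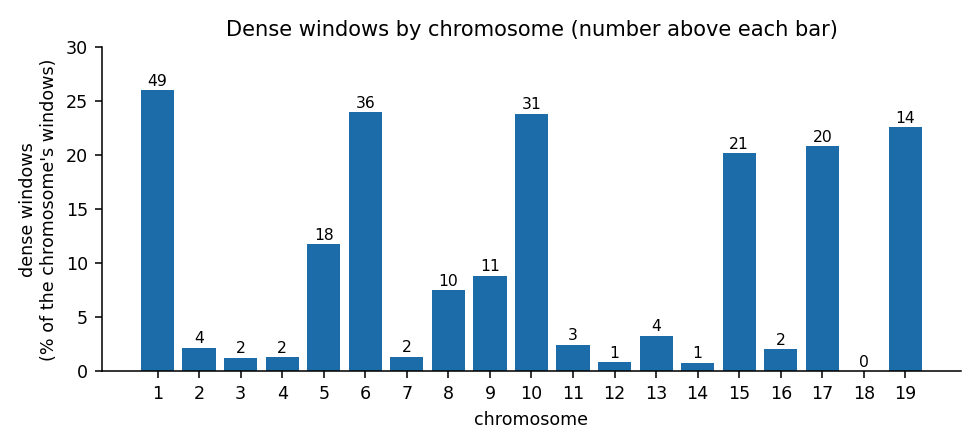
Bars give the dense windows as a percentage of each autosome's windows (vertical axis) by chromosome (horizontal axis), with the number of dense windows above each bar. The 6 tallest bars, of chromosomes 1, 6, 10, 15, 17 and 19, lie between 20.2% and 26.1%, and chromosome 18 has no dense window.

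Dense windows lay next to each other. They formed 103 runs of adjoining windows, of which 53 were single windows, 23 were pairs and 27 had 3 windows or more. The longer runs contained 132 windows (57.1%), and 178 dense windows (77.1%) had at least one dense neighbour. The 186 windows that bordered a run held a median of 55 cell peaks, with quartiles of 39.3 and 69. Most bordering windows were therefore still fuller than the median of 30 in windows that were not dense, and only 16 bordering windows held under 20 cell peaks.

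The longest run covered 13 windows, from 6 to 19 Mb of chromosome 5. It held 1108 untreated and 1269 FCCP peaks, against 89 male and 43 female BAT peaks. Its windows ranged from 80 to 247 cell peaks, and the windows just before and after held 79 and 78. The fullest of the dense windows lay in it, at 14 to 15 Mb, with 107 untreated, 140 FCCP, 7 male and 0 female peaks. The next 3 dense windows in order were also its own: 16 to 17 Mb held 116 untreated and 122 FCCP peaks, 13 to 14 Mb held 112 and 122, and 12 to 13 Mb held 113 and 119.

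The run on chromosome 15, from 13 to 25 Mb, was flatter and had sharper edges. Its 12 windows held 637 untreated and 757 FCCP peaks but 31 male and 14 female BAT peaks, and each had between 97 and 145 cell peaks. The windows on either side dropped to 22 and 27 cell peaks and held 37 and 41 tissue peaks. In those bordering windows tissue peaks outnumbered cell peaks, which the limits did not allow in a window of the run. Farther out the order varied, with 64 cell and 10 tissue peaks at 26 to 27 Mb and 20 and 50 at 27 to 28 Mb.

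Runs of 10 windows opened chromosomes 1 and 9, both from 3 to 13 Mb, directly after a start of the assembly in which no list had a peak. The run on chromosome 1 held 462 untreated and 583 FCCP peaks with 94 male and 51 female BAT peaks. The run on chromosome 9 held 591 and 674, with 53 and 42, and ranged from 85 to 228 cell peaks per window. Its peak was at 4 to 5 Mb, with 108 untreated and 120 FCCP peaks beside 8 male and 6 female BAT peaks.

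**Figure D3:**
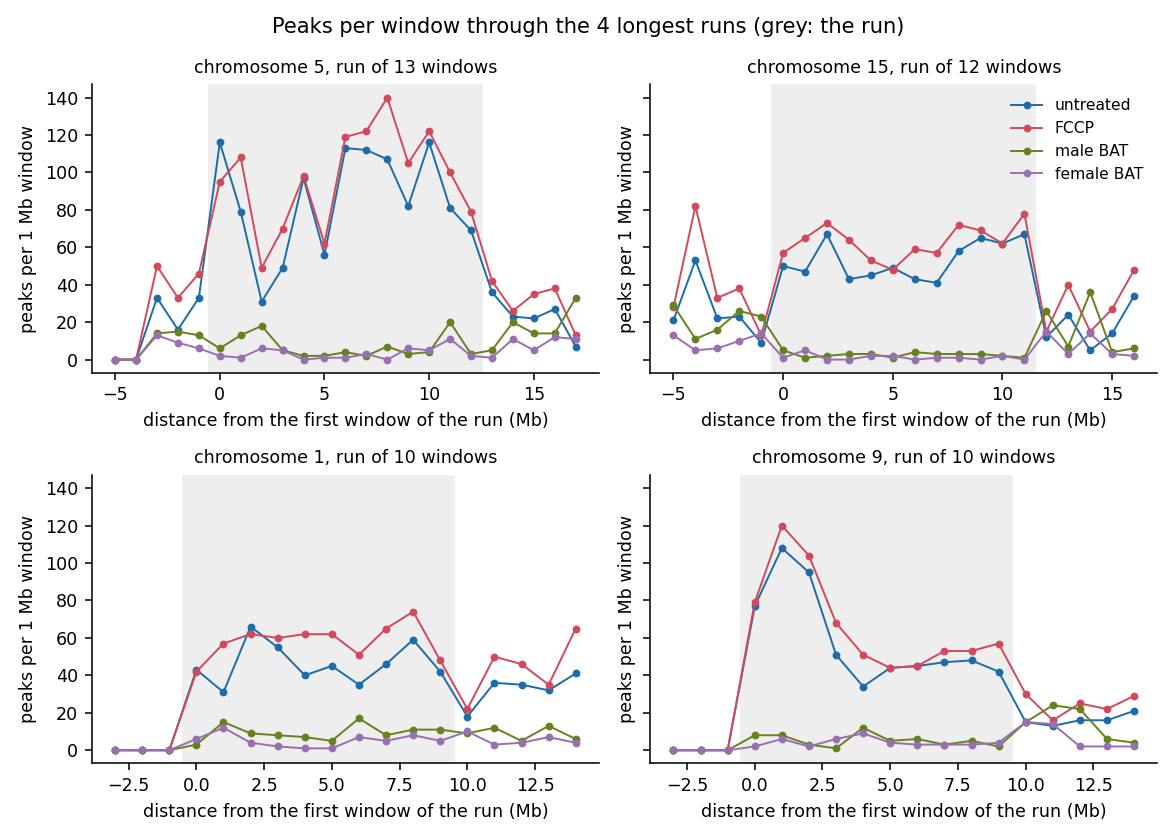
Peaks per 1 Mb window (vertical axis) are drawn against the distance in Mb from the first window of the run (horizontal axis) for the 4 longest runs, on chromosomes 5, 15, 1 and 9; grey marks the run and colours the lists. Both 3T3-L1 lines rise together inside the grey stretch while the BAT lines stay low, and on chromosome 15 the BAT lines are higher in the windows that border it.

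Inside most dense windows the peaks were spread over the whole window. The median gap between neighbouring untreated peaks was 12.9 kb, against 30.3 kb in the other windows, and between FCCP peaks it was 11.0 kb against 23.4 kb. With each window divided into 10 bins of 100 kb, 189 dense windows had an untreated peak in every bin and 213 had an FCCP peak in every bin. Among the other windows with peaks this held in 207 of 2129 and in 471 of 2147. Gaps and filled bins depend on the number of peaks in a window, by which the dense windows were chosen. The variance of the bin counts was a median of 1.04 times their mean for untreated and 0.996 times for FCCP peaks, against 1.14 and 1.18 in the other windows with peaks. Gaps under 1 kb made up 2.704% of untreated and 3.49% of FCCP gaps, against 2.08% and 2.73% elsewhere.

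FCCP peaks outnumbered untreated peaks in the dense windows by less than elsewhere. Dense windows held 11142 untreated and 13464 FCCP peaks, a ratio of 1.21, and the other windows had a ratio of 1.41. Per dense window the median ratio was 1.22, with quartiles of 1.11 and 1.37. FCCP peaks were the more numerous in 202 dense windows (87.4%), equal in 12 and fewer in 17. Over all windows considered, 81.8% had more FCCP than untreated peaks. These include 72 windows without a peak in either 3T3-L1 list, in which FCCP peaks could not be the more numerous. On each of the 9 chromosomes with 10 or more dense windows, the ratio was lower in the dense windows than in the rest of that chromosome.

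Single windows departed from this ratio. The largest was 1.87 at 27 to 28 Mb of chromosome 10, with 30 untreated and 56 FCCP peaks, followed by 1.84 at 4 to 5 Mb of chromosome 1, with 31 and 57. The smallest was 0.819 at 6 to 7 Mb of chromosome 5, with 116 and 95, followed by 0.844 at 106 to 107 Mb of chromosome 3, with 45 and 38. These are extremes among 231 windows, and the difference between the lists was not tested in any of them.

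An untreated peak was counted as kept when it shared at least 1 bp with an FCCP peak, and an FCCP peak likewise. In the dense windows 4822 of 11142 untreated peaks were kept, 43.3% (42.4 to 44.2), against 40.2% (39.6 to 40.7) in the other windows and 41.0% over all windows. Of the FCCP peaks, 35.8% (35.0 to 36.6) were kept, against 28.6% (28.2 to 29.0) elsewhere and 30.3% over all windows. The excess was thus 3.11 percentage points for untreated and 7.22 for FCCP peaks. Both shares count the same overlapping pairs. The FCCP share is therefore close to the untreated share divided by the ratio of FCCP to untreated peaks. That ratio was 1.21 in the dense and 1.41 in the other windows, so the FCCP excess partly restates it.

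The untreated excess rested on few windows and on the limits. Without the 16 windows of 150 or more cell peaks it was 1.204 points, and without chromosome 5 it was 1.51. With the limit lowered to 60 cell peaks it turned to −0.275, and with peaks at least 5-fold over their surroundings to −0.730. The FCCP excess was 5.25, 5.79, 4.48 and 2.79 points under these same changes, smaller but with the same direction.

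A peak placed at any position would touch the other list more often where that list is dense. A peak of the untreated width would touch an FCCP peak from 3.06% of positions in the dense windows and from 1.01% in the others. For an FCCP peak placed among untreated peaks these shares were 2.53% and 0.716%. The gap between dense and other windows is of the order of 2 points in both. Positions here are all bases of the windows, including windows without a peak. The part of crowding in the excesses above was not tested. When at least 50% of the shorter peak had to be shared, the untreated excess was 1.93 points and the FCCP excess 5.75.

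Within each height class the dense windows had the higher kept share. Heights are normalized tags, that is, tags per peak for a library of 10000000 tags, and the 4 classes split all peaks of a list on the windows considered at the quartiles of height. From the lowest to the highest class, 29.4%, 34.0%, 44.1% and 64.9% of untreated peaks were kept in dense windows, against 24.5%, 29.6%, 39.3% and 62.0% in the others. For FCCP peaks the shares were 22.8%, 28.7%, 34.9% and 54.5%, against 15.1%, 18.8%, 26.0% and 49.4%. Weighted to the heights found in dense windows, the other windows kept 38.95% of untreated and 28.0% of FCCP peaks.

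**Figure D4:**
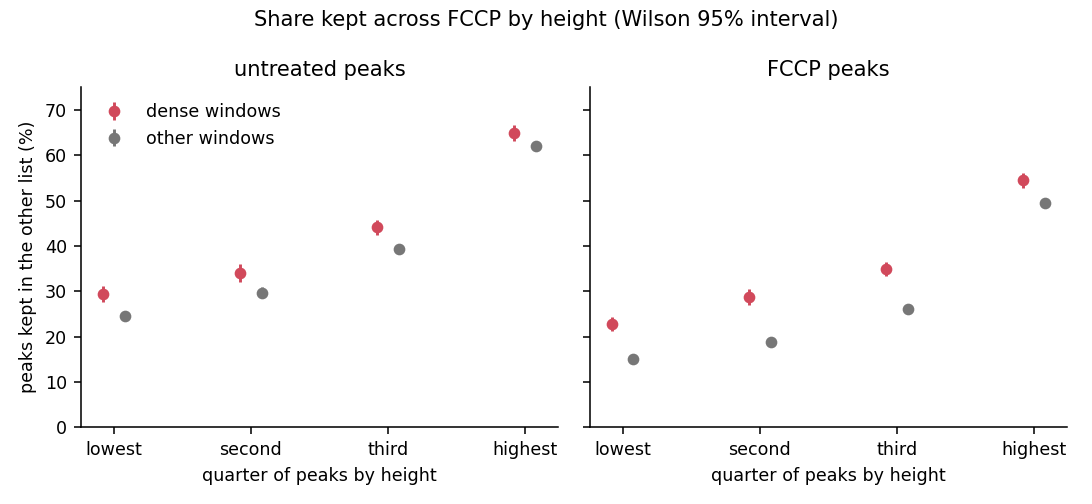
The share of peaks kept in the other 3T3-L1 list (vertical axis, %) is shown by height class (horizontal axis, lowest to highest, split at the quartiles of normalized tags) for untreated peaks on the left and FCCP peaks on the right, with Wilson 95% intervals. Dense windows (red) lie above other windows (grey) in every class, at 29.4% against 24.5% in the lowest untreated class and 64.9% against 62.0% in the highest.

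The kept share of untreated peaks had a median of 40% per dense window, with quartiles of 35.5% and 48.5% and a range of 22.5% to 75.6%. In the 1366 other windows with at least 10 untreated peaks it had a median of 39.3%, quartiles of 31.3% and 50%, and a range of 4.76% to 91.7%. The other windows hold fewer peaks each, so their shares carry more counting error. The highest share was 75.6% at 66 to 67 Mb of chromosome 13, where 62 of 82 untreated peaks were kept. It was 70.0% at 175 to 176 Mb of chromosome 2 (35 of 50) and 66.1% at 146 to 147 Mb of chromosome 4 (37 of 56). The lowest was 22.5% at 34 to 35 Mb of chromosome 8 (9 of 40), followed by 22.7% at 28 to 29 Mb of chromosome 10 (10 of 44). The per-window medians thus lay close together, and high and low shares occurred in both kinds of window.

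Pooled over sets of dense windows, the shares differed. The 16 windows with 150 or more cell peaks, 9 of them on chromosome 5 and 3 on chromosome 9, kept 55.7% (53.1 to 58.2) of untreated and 49.9% of FCCP peaks. In the run on chromosome 5 the shares were 55.3% (52.4 to 58.2) and 48.3%, and in the run on chromosome 9 they were 47.0% and 41.2%. The run on chromosome 15 kept 41.0% and 34.5%, and the run on chromosome 1 kept 37.7% and 29.8%, so that long runs were not alike. The 21 dense windows on chromosomes with 4 or fewer kept 56.3% and 50.5%.

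Chromosome by chromosome, FCCP peaks were kept more often in the dense windows than in the others on 9 of the 9 chromosomes with 10 or more, by 0.603 points on chromosome 8 to 18.96 on chromosome 5. The ratio of FCCP to untreated peaks, to which the FCCP share is tied, was lower in the dense windows on these same 9. Untreated peaks were kept more often on 6 of the 9, with differences from −1.48 points on chromosome 8 to 16.3 on chromosome 5. Over these 9 chromosomes together the shares were 41.9% against 38.2% for untreated and 34.4% against 27.1% for FCCP peaks.

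Kept share did not climb steadily with density. Over windows of 0 to 19, 20 to 39, 40 to 59 and 60 to 79 cell peaks, 41.5%, 43.6%, 38.96% and 37.6% of untreated peaks were kept. Over the dense windows of 80 to 99, from 100 up to under 150 and 150 or more, the shares were 39.9%, 42.8% and 55.7%. The FCCP shares were 26.9%, 29.6%, 27.9% and 29.0% below the limit and 31.9%, 35.8% and 49.9% above it. The windows just under the limit thus had the lowest untreated share of any class, and the densest class the highest of both lists. The ratio of FCCP to untreated peaks fell through all 7 classes, from 1.54 in the emptiest to 1.12 in the fullest.

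Where a peak was present in both lists, its height differed little between them. The 4822 shared pairs in dense windows had a median log2 ratio of FCCP to untreated height of 0.05, with quartiles of −0.11 and 0.24, against a median of 0.08 in the other windows. The SD of the ratios was 0.26, under the 0.37 that counting error of the tags alone would give for unselected peaks; pairs had to pass the height threshold in both lists. At least 1.5-fold higher after FCCP were 122 pairs (2.53%), against 2.42% over all windows, and at least 1.5-fold lower were 37 (0.767%), against 0.634%. Both shares were near the background, and no change of a single pair was tested.

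The tallest shared pair in the dense windows was the untreated peak at chr5:3001982-3002246, with 101.1 normalized tags, and its FCCP partner with 109.1. Their ratio was 1.08 (0.974 to 1.197, exact interval from the tags). It lay close to the start of the assembled chromosome and stood 5.49-fold over its surroundings, which is a modest local fold for its height. Another of the tallest, at chr6:103614851-103615115, had 55.7 and 69.9 normalized tags and stood 57.54-fold over its surroundings. The largest ratio among pairs above the median height was 1.70 (1.11 to 2.63) at chr17:81768776-81769040, and the smallest was 0.496 (0.297 to 0.809) at chr1:178618668-178618932. As extremes of a long list of pairs these ratios carry no test.

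The height of the 3T3-L1 peaks themselves was ordinary. Untreated peaks in dense windows had a median of 3.89 normalized tags, against 4.03 elsewhere, and FCCP peaks had 4.03 in both. These medians lay just above the height thresholds of 3.49 and 3.58 that the authors' caller applied. Over each whole list, a peak of median height held about 30.03 untreated or 26.99 FCCP tags, with a counting error of 18.2% or 19.2%. The dense windows were therefore full of small peaks near the calling threshold, as the other windows were, and had more of them.

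A level of tags around each peak can be had from the lists by dividing its normalized tags by its fold over the surrounding 10000 bp. It exists only where a peak was called. For 3T3-L1 peaks it was 0.779 normalized tags per peak width in dense windows against 0.803 in the others for untreated cells, and 0.792 against 0.819 for FCCP. Tags spread evenly over the genome would give 1.32 for untreated cells and 1.31 for FCCP, above the medians of both kinds of window. Peaks of both 3T3-L1 lists were required to stand at least 4-fold over their surroundings, which limits how high the level at a called peak can be. When only peaks of 5-fold or more were used the order turned, to 1.01 times the other windows in each list.

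In BAT the surroundings of peaks differed between dense and other windows. BAT peaks had to reach only 2-fold over their surroundings, a looser cap on the level, so the size of this contrast is not comparable with that in 3T3-L1. Male peaks in dense windows had a median local level of 0.382 normalized tags per peak width, against 0.721 in the other windows, a ratio of 0.530. Female peaks had 0.401 against 0.641, a ratio of 0.625. The levels expected for tags spread evenly over the genome were 0.557 and 0.593, so the dense windows lay below and the other windows above them. Among windows with at least 5 peaks, the median local level was below this expectation in 115 of 131 dense windows for male BAT, against 613 of 1771 others. For female BAT this held in 81 of 88 dense windows, against 579 of 1459.

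The lower tissue level was found on many chromosomes. The only reversal was female BAT on chromosome 4, at 0.785 in its 2 dense windows against 0.651. Male BAT was close there, at 0.710 against 0.729. The level was lower in the dense windows on each of the 9 chromosomes with 10 or more. It was 0.402 to 0.573 of the rest of the chromosome for male and 0.473 to 0.663 for female BAT. It was also lower in each class of more cell peaks, which are counted in other libraries, except that the fullest class lay slightly above the one before it. From windows of 0 to 19 cell peaks up to windows of 60 to 79, the male level ran 0.874, 0.674, 0.560 and 0.482, and through the dense classes it was 0.402, 0.359 and 0.378. The female level ran 0.762, 0.613, 0.520 and 0.470 and then 0.417, 0.363 and 0.377. The level thus declined gradually, with a step across the limit of 80 close in size to the one just below it. Base composition, mappability and copy number of these windows cannot be told apart from the count of cell peaks here, and their part was not tested.

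**Figure D5:**
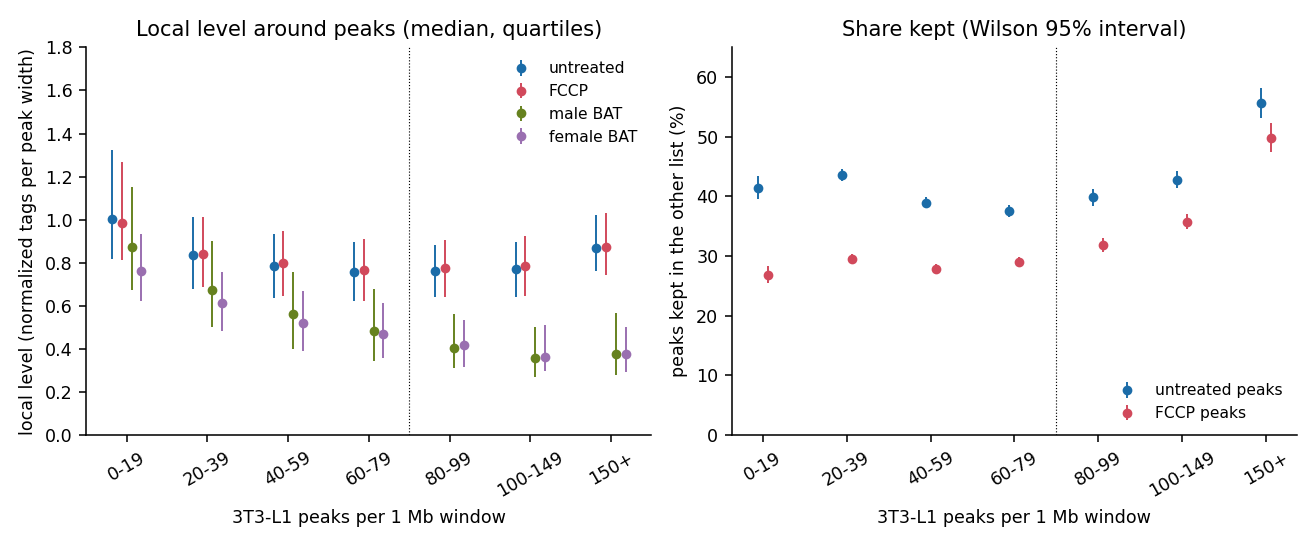
Windows are grouped by their number of 3T3-L1 peaks (horizontal axis), with the limit of 80 as a dotted line; the left panel gives the median and quartiles of the local level around peaks in normalized tags per peak width, the right panel the kept share with Wilson 95% intervals. The male and female BAT levels fall from 0.874 and 0.762 in the emptiest class to 0.378 and 0.377 in the fullest, while the kept shares are highest in the class of 150 or more.

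The few tissue peaks in the dense windows were smaller than elsewhere but stood out more from their surroundings. Male peaks had a median of 3.66 normalized tags against 4.32, and female peaks 2.80 against 3.31. Their fold over the surroundings was 9.13 against 5.98 in male and 7.29 against 5.20 in female BAT. The local level is height divided by this fold, so the higher fold largely restates the lower level given above. A called peak also had to reach 2.66 normalized tags in male and 2.54 in female BAT, which keeps the fold high where the level is low. The median fold of the tissue peaks over the knockout library was 6.39 against 5.41 in male and 8.33 against 5.86 in female BAT. Its upper quartile was 10.1 against 7.86 in male BAT and 10.18 in both kinds of window in female BAT. The part of low tag counts in this fold was not tested. Over each whole BAT list, a peak of median height held about 13.0 tags, with a counting error of 27.7%, and the median peak of the dense windows held fewer.

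More of these tissue peaks touched a 3T3-L1 peak. In dense windows 328 of 1602 male peaks, 20.5% (18.6 to 22.5), overlapped a peak of either cell list, against 4.38% in the other windows. Of the female peaks, 185 of 1014 did so, 18.2% (16.0 to 20.7), against 5.11%. The cell peaks were also more than 3 times as dense there, and the part of that density in the overlap was not tested. Of the male peaks in dense windows 2.06% met a female peak, against 3.67% elsewhere, and 3.25% of female peaks met a male peak, against 7.88%. Here too the density of the list met differed: dense windows held 0.554 times the female and 0.407 times the male peaks per window of the others, and the part of that in the overlap was not tested.

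The tallest tissue peaks of the dense windows differed in how far they stood over their surroundings. In male BAT the tallest lay at chr1:24568728-24568862 with 212.2 normalized tags, at 2.58-fold over its surroundings and 3.86-fold over the knockout, and met no cell peak. In female BAT the tallest lay at chr10:37509837-37509975 with 429.7 normalized tags, at 3.01-fold over the knockout but 1183.36-fold over its surroundings, and met a cell peak. Both lay far above the median heights of 3.66 and 2.80 in the dense windows.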

How the data were processed

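GPS2 peaks were analysed from 4 deposited lists. Bowtie2 alignment to mm8 and HOMER peak calling are named in the submitters' processing notes; versions are not given in the sources used here. Per the file headers, a 3T3-L1 peak had to pass a false discovery rate of 0.001 and reach 4-fold over 10000 bp around it, with no control and no more than 3 tags counted per base pair. A BAT peak had to pass a rate of 0.05 and reach 2-fold over both the knockout and its surroundings, with no more than 1 tag counted per base pair. Cell and tissue counts thus follow different rules. Deposited tag counts, normalized to 10000000 tags, are a signal, and the deposited folds over the surroundings and the knockout are ratios. The deposited focus ratio is a fraction and supports no result in the text. All are the authors' values for single peaks.

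Windows were counted by peak centre. Kept peaks shared at least 1 bp with the other list, and pairs were formed by the longest overlap. The local level is normalized tags divided by local fold. The code was tested on simulated data. Tables were made with pandas 2.3.3 and numpy 2.4.6 under Python 3.11.15, intervals with SciPy 1.17.1 and figures with matplotlib 3.10.9.

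The windows, limits and comparisons were chosen with earlier results of these data known. The rule for named items takes the windows with most cell peaks, those nearest the limit, the highest and lowest kept shares and FCCP ratios, the longest runs, and the tallest and most changed peaks. Alternatives changed the limits, the grid, the overlap and the peak threshold. Those without chromosome 5, without the 16 fullest windows or on 9 chromosomes were added after seeing the data. Genes, base composition and sequences of the windows were not analysed here, since the annotation at hand is on another build; H3K9me3, polymerase and input samples were not used here.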

Additional observations from a re-analysis of the deposited data

How the results depend on the processing

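In all, 118 alternative values of 11 results were computed: 73 stayed close, 40 moved and 5 turned. Close means within 1.5 times for the number of windows, and within the 95% interval of the reported value over its peaks for the other results. With windows of 0.5 Mb and both limits halved there were 505 dense windows, each covering less sequence than the 231 of 1 Mb. At 1 Mb the number was 496 with a limit of 60 cell peaks and 111 with a limit of 100. By the untreated list alone it was 170 and by the FCCP list alone 338. With the limit at 60, the difference in kept share was −0.275 points for untreated and 4.48 for FCCP peaks, the ratio of FCCP to untreated peaks was 1.24, and the local level relative to other windows was 0.935 in untreated cells and 0.577 in male BAT. With the limit at 100, the kept differences were 5.63 and 9.84, the local levels 0.996 and 0.504, and the untreated height was 1.04 times that of other windows, turning its direction. Choosing windows by the untreated list alone gave an FCCP difference of 9.26 and a ratio of 1.15; by the FCCP list alone, 4.66, a ratio of 1.27 and a male level of 0.558. With 50% overlap the differences were 1.93 and 5.75. With peaks at least 5-fold over their surroundings they were −0.730 and 2.79, with a ratio of 1.29 and local levels that turned to 1.01 in both 3T3-L1 lists. Under 20 BAT peaks, the local levels were 0.960 for untreated cells and 0.463 for male BAT. The male level was 0.556 on a grid moved by 0.5 Mb and 0.554 with peaks at least 4-fold over the knockout. Leaving out the windows of 150 or more gave 1.204 and 5.25, and leaving out chromosome 5 gave 1.51 and 5.79. The cause of these shifts was not tested.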

Other observations

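The X chromosome was not part of the choice of windows. Of its 166 windows, 2 met the same limits, and the median window held 29 cell peaks and 3 BAT peaks. Its fullest window, at 3 to 4 Mb, held 52 untreated and 51 FCCP peaks with 2 male and 0 female BAT peaks. The ratio of FCCP to untreated peaks on X was 1.56. In autosomal windows of 20 to 39 cell peaks, the class of the median X window, it was 1.47. It was 1.41 in all autosomal windows that were not dense and 1.21 in the dense ones.

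In the stretch left out, 140 to 150 Mb of chromosome 1, 9 of 10 windows held at least 80 cell peaks, with a range of 35 to 286. There 53.9% of untreated and 52.3% of FCCP peaks were kept.

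Among the longer runs of dense windows, the run of 3 windows at 175 to 178 Mb of chromosome 2 kept 62.0% of untreated and 58.0% of FCCP peaks. Its untreated peaks had a median of 5.37 normalized tags, taller than the 3.89 of all dense windows. The run at 65 to 68 Mb of chromosome 13 kept 67.0% and 57.7%, with a median untreated height of 5.10.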
